A study of Arabidopsis thaliana with 8 samples.

Results

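The 100 genes described here were the most stable genes of the root tip across 2 temperatures, and they were chosen by measured values. Among the 10923 genes whose normalized value averaged at least 500 over 8 libraries, they had the lowest coefficient of variation (CV), which is the SD over the 8 libraries divided by the mean. The table held 23632 genes in all. Because the CV was taken over both temperatures together, a small difference between the temperatures is what chose these genes and is given only as a description.

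RNA was sequenced from the last 1 mm of the primary root of wild-type Arabidopsis thaliana Col-0, a tissue sample of mixed cell types in which fewer cells of a type and less RNA per cell cannot be told apart. Seedlings were 5 days old when the treatment began and then spent 48 h either at 22 °C (control) or at 30 °C (high temperature). Both groups were Col-0, with no transgene or chemical. There were 4 libraries per temperature, which the labels call biological replicates, each pooling 50 seedlings that came from 5 plates. The methods give 3 replicates, so all 4 were used as labelled.

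Genes of constant level serve as internal references when transcripts are measured by quantitative reverse-transcription PCR (qRT-PCR), because every other gene is expressed relative to them. Reference genes in common use come from the cytoskeleton (actins and tubulins), from translation and from the ubiquitin system. A reference that itself moves with the treatment shifts every gene measured against it.

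The libraries held 38216649 to 41833843 reads in genes. The deposited values are read counts divided by a size factor, which was 0.904 to 0.967 in the control and 1.03 to 1.14 at high temperature. After this scaling the sum over all genes was 0.868 times as large at 30 °C as at 22 °C. All 10 listed root tip markers were above 0 in every library, with a summed normalized value of 14087 to 14934 in the control and 14591 to 15356 at 30 °C. Markers of tissue beyond the tip summed to 445 to 1041 in the control and to 0.877 to 122 at 30 °C. Single markers did not all move the same way. COBL9 and EXPA7, markers of root hair cells, had means of 674 and 76.4 in the control and 6.95 and 2.62 at 30 °C, whereas the endodermal marker CASP1 had 6.86 and 25.9, with 94.3 in high temperature replicate 3. Among tip markers PLT1 had means of 1234 and 2307 and WER 1888 and 1278. Shoot markers summed to 92.0 to 123 and to 10.3 to 17.2. Of these, CAB1 had 106 and 14.2, and RBCS1A was at 0 in all 4 high temperature libraries. The part of these markers in the results was not tested. By limma, 4344 of the 21739 genes tested (20.0%) were called higher at 30 °C and 3797 (17.5%) lower, at an adjusted p under 0.05 and a log2 fold change of at least 0.58 in size. The adjusted p alone was passed by 15455 genes (71.1%).

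The CV of the 100 stable genes ran from 0.960 to 2.44%, with a median of 2.07%, against a median of 14.3% and a highest value of 112% over all 10923 genes of that level. The spread between the lowest and the highest of the 8 libraries had a median of 6.23% of the gene's mean. The last gene inside the limit was AT5G01290, an mRNA capping enzyme gene, with a CV of 2.443%. The first outside it were ARO4, an armadillo repeat gene, with 2.445%, AT5G11760 with 2.446% and AT5G08570, a pyruvate kinase gene, also with 2.446%. The list therefore ends inside a continuous run of CVs and not at a gap.

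**Figure D1:**
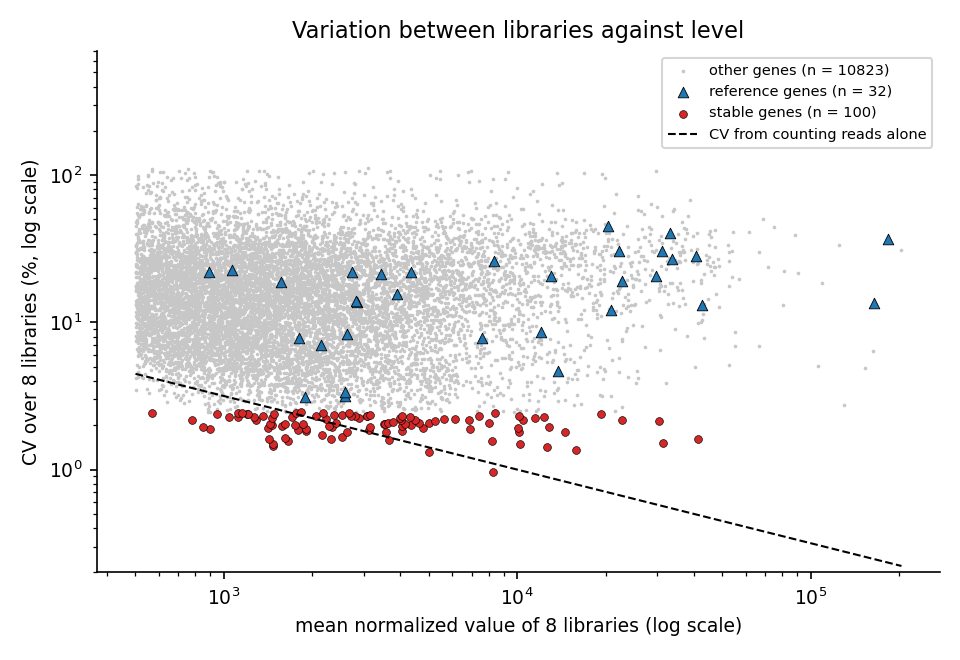
Each point is a gene of at least 500 in mean, with the mean normalized value of the 8 libraries on the horizontal axis and the CV over them in percent on the vertical axis, both on log scales. The 100 stable genes (red) lie at 0.960 to 2.44%, of which 77 are below 1.5 times the CV that counting reads would give by itself (dashed line) and VDAC1 is the farthest off at 3.75 times, and the 32 reference genes of that level (triangles) lie between 3.10 and 45.3%.

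GLX1 (AT1G11840) had the lowest CV of all. It encodes a glyoxalase, an enzyme that clears methylglyoxal, a toxic by-product of glycolysis. Its normalized values were 8415, 8264, 8251 and 8317 in the control and 8343, 8187, 8192 and 8222 at 30 °C. The groups overlapped, and the means were 8312 ± 74.8 and 8236 ± 72.9 (SD, n = 4 each). NFD1 (AT4G30930), a ribosomal protein L21 of the mitochondrion, was second, with a CV of 1.31%. Its values were 4909, 4919, 5079 and 5012 in the control and 4943, 5006, 5074 and 5010 at 30 °C. MSD1 (AT3G10920), the manganese superoxide dismutase that removes superoxide in mitochondria, followed with a CV of 1.37%. Its values were 16066, 15895, 15603 and 16025 in the control and 15959, 15909, 15434 and 15868 at 30 °C. In both of these genes the control and the high temperature libraries were interleaved.

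The next genes in order covered metabolism, signalling and the ribosome. AT3G52990, a pyruvate kinase gene of the last step of glycolysis, had a CV of 1.42% and values between 12365 and 12955. SFR2 (AT3G06510), a galactolipid-remodelling enzyme known for freezing tolerance, had a CV of 1.45% and values between 1436 and 1504. PP2A-4 (AT3G58500), a catalytic subunit of protein phosphatase 2A, had a CV of 1.48% and values between 9971 and 10411. GCN2 (AT3G59410) encodes the kinase that phosphorylates initiation factor eIF2α under amino acid shortage. Its values were 1467, 1494, 1439 and 1483 in the control and 1444, 1480, 1496 and 1455 at 30 °C, so that neither temperature was the higher. SAG24 (AT1G66580), a gene of the ribosomal protein L10 family, was the most abundant member per length, at 692 ± 10.6 FPKM (SD, n = 8). Its normalized values were 30924, 31713, 31697 and 32067 in the control and 31906, 31140, 30731 and 31370 at 30 °C. The FPKM values carry the same size factors, so their spread is no second measure of stability. AT5G62890, a xanthine/uracil permease gene, had a CV of 1.55%, as did FIP1 (AT1G28200), whose product was named for its interaction with a formin.

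**Figure D2:**
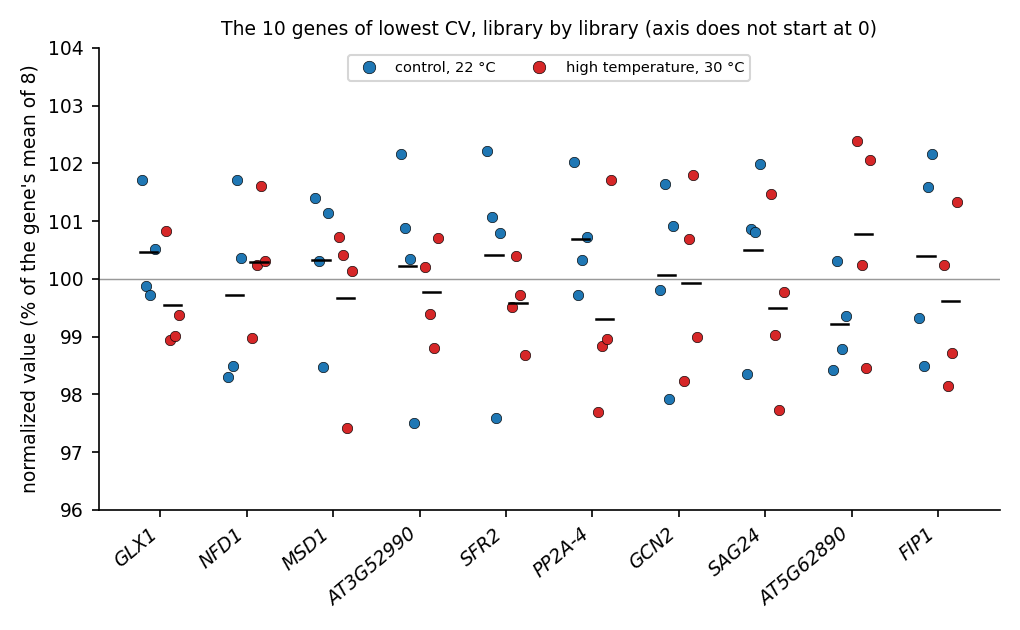
Normalized value of the 10 genes of lowest CV in each library, as a percent of the gene's mean over the 8 libraries, with control libraries in blue, high temperature libraries in red and a bar at each group's mean (n = 4). The vertical axis does not start at 0. Blue and red points overlap in each of the 10 genes.

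The sequence upstream of 5 of these genes is shown because upstream motifs are the sequence feature compared over the set. The stretches are the 250 bases before the annotated gene start in RefSeq's TAIR10.1, 5′ to 3′ on the gene's strand. Capitals mark TATAAA, the TATA box, and TGGGCC, the site II element found before many ribosomal and mitochondrial protein genes, on either strand (TTTATA and GGCCCA are the other strand).
GLX1, chr1:3994908-3995157, plus strand: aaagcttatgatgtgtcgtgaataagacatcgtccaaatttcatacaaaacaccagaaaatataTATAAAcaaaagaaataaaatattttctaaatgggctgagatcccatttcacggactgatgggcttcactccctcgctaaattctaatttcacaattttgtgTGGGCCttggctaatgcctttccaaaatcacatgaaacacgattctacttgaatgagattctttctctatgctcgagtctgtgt
NFD1, chr4:15051752-15052001, minus strand: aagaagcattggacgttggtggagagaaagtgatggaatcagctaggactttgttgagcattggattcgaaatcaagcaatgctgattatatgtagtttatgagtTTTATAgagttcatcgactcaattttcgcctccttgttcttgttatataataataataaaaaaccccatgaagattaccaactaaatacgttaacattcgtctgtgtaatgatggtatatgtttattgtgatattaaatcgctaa
MSD1, chr3:3417690-3417939, plus strand: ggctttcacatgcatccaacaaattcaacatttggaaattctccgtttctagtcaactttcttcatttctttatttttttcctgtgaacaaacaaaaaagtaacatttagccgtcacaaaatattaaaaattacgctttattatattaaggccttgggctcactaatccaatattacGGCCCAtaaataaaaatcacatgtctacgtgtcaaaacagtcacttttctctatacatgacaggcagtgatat
SFR2, chr3:2015996-2016245, plus strand: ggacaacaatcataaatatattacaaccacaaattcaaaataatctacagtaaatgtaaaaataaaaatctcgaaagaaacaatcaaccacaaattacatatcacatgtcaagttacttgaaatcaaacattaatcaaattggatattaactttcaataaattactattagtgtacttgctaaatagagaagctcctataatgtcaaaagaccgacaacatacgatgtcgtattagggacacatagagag
SAG24, chr1:24838840-24839089, plus strand: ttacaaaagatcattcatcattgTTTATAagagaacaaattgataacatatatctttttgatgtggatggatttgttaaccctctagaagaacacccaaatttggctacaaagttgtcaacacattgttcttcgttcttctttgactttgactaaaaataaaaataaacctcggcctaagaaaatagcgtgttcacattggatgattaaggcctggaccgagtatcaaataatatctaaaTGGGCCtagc
GLX1 and SAG24 hold both motifs, NFD1 only the TATA box, MSD1 only site II and SFR2 neither.

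Over all 100 promoters, 46 held TATAAA, against 45.4% of the 10880 protein-coding genes of the same level. TGGGCC was in 26, against 20.1% at the same level and 13.6% of all 27561 promoters searched. The G box CACGTG was in 9 (7.79% at the same level) and the telo box AAACCCTA in 5 (3.84%). GAANNTTC, a core of the heat shock element, was in 4 (8.80%), namely those of AT5G10745, AGO1, AT5G47455 and AT3G25545. No motif among those searched was shared by most members, and a match in 250 bases shows letters and not a bound site.

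Members were more frequent among abundant genes, in which counting reads adds less relative noise. The members' mean normalized value ran from 571 to 41192, with a median of 2975, against 1579 for all genes of at least 500. Per length the members ran from 4.60 to 692 FPKM, with a median of 31.7 against 20.4. Only 5 of the 3241 genes between 500 and 1000 were members (0.154%), and 16 of the 715 genes above 10000 (2.24%). The share did not rise at every step, with 0.894% from 1000 to 2000, 1.40% from 2000 to 5000 and 1.17% from 5000 to 10000. The part of counting noise in these shares was not tested. Counting alone would give the members a median CV of 1.83%, and the ratio of the observed to this CV had a median of 1.14, against 5.73 over all genes of the level. In 41 members the observed CV was below the counting CV, as it was in 107 of the 10923 genes (0.980%). Low ratios to the counting CV follow from a choice by lowest CV and are given only as a description. OCP3 (AT5G11270), a homeodomain transcription factor, was the member of lowest level, with values of 553 to 588 and a CV 0.583 times that of counting. AT5G57860, a ubiquitin-like gene with values of 754 to 805, and SRF1, a receptor-like kinase gene with 818 to 872, were the next lowest. VDAC1 (AT3G01280), a channel of the outer mitochondrial membrane, had the highest ratio, 3.75, at a mean where counting alone gives 0.573%. Its values were 29364, 30343, 29954 and 31242 in the control and 30560, 31088, 30082 and 31068 at 30 °C. PAB2 (AT4G34110), a poly(A)-binding protein, had the highest mean of all members, with values of 39796 to 41941 and a CV of 1.62%.

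Within the set, log2 fold changes ran from -0.06 to 0.05 with a median of -0.01, on the log2(value + 0.5) scale, against a median of -0.09 over all genes of the level. They were negative in 59 members and positive in 41. None was called, none passed an adjusted p of 0.05 by limma, edgeR or DESeq2, and none had an unadjusted p under 0.05 by limma, which follows from how they were chosen. The widest 95% confidence interval, that of OCP3, reached a log2 fold change of -0.149, or 1.11-fold. The groups did not overlap in 9 members, whereas they did not overlap in 79.0% of the 10923 genes. NRB4 (AT1G15780), a subunit of the Mediator complex that links transcription factors to RNA polymerase II, had the largest decrease, -0.06. Its values were 2748, 2776, 2692 and 2695 in the control and 2654, 2604, 2595 and 2643 at 30 °C, with no overlap. UBQ4 (AT5G20620), a polyubiquitin gene, differed by -0.06 as well, from 3197 ± 41.2 to 3078 ± 37.7 (SD, n = 4 each). AT2G32040, a transporter of the major facilitator superfamily, had the largest increase, 0.05, from 1460 ± 11.8 to 1514 ± 29.7. AT4G18905, a WD40 repeat gene, had -0.05, and AT3G25545, annotated as a trigger factor, 0.05. These are differences of a few percent of the level.

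Among the members were genes of protein degradation, transcription, RNA handling and translation. The members below were named for their known roles with their values already seen, beside those the naming rule gave. In protein degradation, CUL1 (AT4G02570) and SKP1 (AT1G75950), the scaffold and the adaptor of SCF ubiquitin ligases, were both members. CUL1 had values of 9973, 10187, 9849 and 10218 in the control and 10132, 9940, 10108 and 10421 at 30 °C. SKP1 had 11514, 11440, 11367 and 11658 in the control and 11548, 11605, 11018 and 11907 at 30 °C. In each gene the temperatures overlapped, and the high temperature libraries held the highest value. ATS9 (AT1G29150), a non-ATPase subunit of the 26S proteasome, was a member with values of 8441 to 8571 in the control and 7963 to 8427 at 30 °C, with no overlap. KAK (AT4G38600), a HECT ubiquitin ligase known for its role in trichome branching, had values of 11850 to 12665. AT1G27530, the enzyme that conjugates the ubiquitin-like modifier UFM1, had a CV of 1.93%.

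Transcription was represented by genes for RNA polymerases I, II and III or their initiation factors. AT1G30590, annotated as the RNA polymerase I initiation factor RRN3, had means of 3043 ± 44.1 and 3097 ± 89.2. NRPB4 (AT5G09920), a subunit of RNA polymerase II, had 1578 ± 35.6 and 1572 ± 30.7. AT1G17450, the subunit of the RNA polymerase III factor TFIIIC that binds the B block, had 1146 ± 31.9 and 1164 ± 24.9 (SD, n = 4 each, control first) and was the lowest member per length, at 4.60 FPKM. Chromatin genes included HDA15 (AT3G18520), a histone deacetylase, with a CV of 2.08%, and FLD (AT3G10390), a histone demethylase homologue of the autonomous flowering pathway, with a CV of 2.04%. The auxin response factor ARF10 (AT2G28350) had a CV of 1.70%. Downstream of transcription, the set held AGO1 (AT1G48410), the main effector of microRNAs, whose values were 12963, 12974, 12724 and 13005 in the control and 12349, 13082, 12598 and 12925 at 30 °C. The nuclear pore gene LNO1 (AT1G55540) had a CV of 1.83%, and AT3G49601, a pre-mRNA splicing factor gene, one of 2.32%.

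In translation, EIF3K (AT4G33250), a subunit of initiation factor 3, had values of 7836 to 8164 in the control and 7712 to 8182 at 30 °C. AT5G35530, a gene for ribosomal protein S3 of the cytosol, had 22352 to 23548 and 22116 to 23078. Of the 460 genes of at least 500 in the translation keyword group, 148 were called lower and 26 higher, beside 17.7% lower and 11.9% higher over all genes of that level. J3 (AT3G44110), an HSP40 co-chaperone, was the only member in the chaperone group and had the third largest increase, 0.05. Its values were 19102, 18849, 18646 and 19484 in the control and 19614, 19761, 19182 and 19976 at 30 °C, so that the groups overlapped. Of the 153 genes in that group, 39 were called higher and 19 lower, beside the same 11.9% and 17.7%. GLY2 (AT3G10850), a glyoxalase of the second step of methylglyoxal removal, was a member too, with means of 3710 ± 59.1 and 3827 ± 46.8. Of the remaining members that the naming rule gave, AT1G70190 is annotated as having a ribosomal protein L7/L12 domain (CV 1.84%), AT5G02050 as a mitochondrial glycoprotein family gene (1.91%) and AT2G30160 as a mitochondrial substrate carrier (2.26%). AT4G32760, an ENTH/VHS/GAT family gene (1.79%), and AT3G22290, annotated as a vesicle transporter of the endoplasmic reticulum (2.31%), belong to membrane traffic. AT5G03660 is annotated as a transcriptional activator (2.03%) and AT1G72390 as a nuclear receptor coactivator (2.20%), while AT5G10745 (1.60%), AT1G26750 (1.67%) and AT4G32930 (1.87%) are uncharacterized.

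By words in the reference descriptions, ubiquitin and proteasome genes made up 8% of members against 4.32% of all genes of the level, transporters 6% against 3.77% and transcription and chromatin genes 6% against 4.92%. Kinases and phosphatases made up 8% against 7.20% and translation genes 5% against 4.21%. At or below their share of the level were RNA processing (2% against 2.93%), receptors (2% against 2.09%), chaperones (1% against 1.40%), cell wall (1% against 1.86%) and plastid genes (0 against 0.558%). Membrane traffic held 2% of members against 2.02%, mitochondria 2% against 0.806% and nuclear transport 1% against 0.439%. No test was made of these shares. Genes with no known function made up 8% against 6.39%, and 52 members fell in no group, against 60.3% of all genes of the level. Such words misplace some genes. AGO1 and the proteasome subunit ATS9 counted as transporters, while the transporter AT2G32040 fell in no group. FLD, a histone demethylase homologue, counted under ubiquitin and proteasome, and SKP1 and the metabolic enzymes AT3G52990 and ADK as kinases. OCP3, by its name, was the single cell wall gene. The shares of these groups rest partly on such genes. The cell wall group held 203 genes of the level, of which 89 were called lower and 17 higher, beside 17.7% and 11.9% over all genes of the level.

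All 100 members were protein-coding genes. Their median was 8 exons and a spliced length of 2020 bases, against 6 exons and 1837 bases at the same level, and a single exon was found in 1 member and in 7.81% of all genes of the level. Members lay on chromosomes 1 to 5 in numbers of 25, 11, 26, 17 and 21. A gene on the other strand overlapped 29 of them (27.2% at the same level). No other transcript matched a member at 95% identity or more over 200 or more bases.

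The choice was also repeated with each library left out in turn, as a description of how far the list rests on single libraries. In the library left out, the values of the 100 genes picked from the other 7 lay a median of 2.13 to 3.26% from the mean of the other 7, against 12.7 to 17.1% over all genes of the level, which include those that differ between the temperatures. Between 67 and 85 of the 100 were within 5%. The lists picked from 7 libraries shared 66 to 81 genes with the list from all 8, and GLX1 was among the first 5 genes in all 8 of them. The size factors came from all 8 libraries, so no library was fully independent of the choice.

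None of the 36 reference genes listed by name from common use was a member. Of the 35 tested, 2 rose and 11 fell past both thresholds, or 37.1% against 37.4% of all tested genes, and 32 passed the adjusted p alone, which 71.1% of all tested genes did. A mean of at least 500 was reached by 32 of the references, and all 13 called references were among these. Among all genes of that level 29.6% were called, a smaller share than 13 of 32, and 83.0% passed the adjusted p. The median CV of these 32 references was 19.0%. The temperatures did not overlap in 29 of the 32, a larger share than the 79.0% of all genes of that level. ACT2 (AT3G18780), an actin gene, fell by 1.14 on the log2 scale (adjusted p = 1.7e-11, limma). Its values were 46637, 45580, 46952 and 43128 in the control and 18812, 20225, 21204 and 22730 at 30 °C, far apart. AT5G60390, a translation elongation factor EF1A gene, fell by 1.04 (adjusted p = 9.7e-12, limma), from 247733 ± 6751 to 120759 ± 5472 (SD, n = 4 each). The tubulin gene TUB4 (AT5G44340) fell by 0.85 and the cyclophilin gene ROC3 (AT2G16600) by 0.84. UBQ10 (AT4G05320), a polyubiquitin gene, rose by 1.29 (adjusted p = 8.4e-13, limma), from 12374, 11958, 11493 and 11624 to 31698, 28587, 27512 and 28368. UPL7 (AT3G53090), a ubiquitin ligase gene, rose by 0.59, just past the threshold, and was no longer called under quantile normalization (0.576), without control replicate 3 (0.578) or without high temperature replicate 3 (0.53). Under quantile normalization TUB4 and ROC3 were not called either, at -0.47 and -0.42. With control replicate 3 left out, 8 and not 13 reference genes were called, since several lay close to a fold change of 0.58.

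The reference genes nearest to the stable set ranked 287th and below. AT4G34270, a TIP41-like gene, had values of 1914, 1850, 2017 and 1883 in the control and 1874, 1866, 1822 and 1909 at 30 °C, with a CV of 3.10% and a log2 fold change of -0.04 (95% confidence interval -0.12 to 0.05, adjusted p = 0.42, limma). AT2G32170 ranked 304th with a CV of 3.17%, and CBP20 (AT5G44200), a subunit of the nuclear cap-binding complex, 374th with 3.35%. In these 3 genes the temperatures overlapped, and no other tested reference gene missed the adjusted p. UBQ11 (AT4G05050), another polyubiquitin gene, ranked 1008th with a CV of 4.69%. Its log2 fold change was -0.12 (adjusted p = 0.0018, limma), and the sign turned under total-sum rescaling (0.08, adjusted p = 0.010, limma) and quantile normalization (0.25, adjusted p = 6.7e-07, limma).

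The study measured its own transcripts by qRT-PCR against UBC19 (AT3G20060), a ubiquitin-conjugating enzyme gene, and EIF4A-III (AT3G19760), an RNA helicase of the exon junction complex. Their primers are given because they define what was measured, and each matched its gene in TAIR10.1.
UBC19 forward, chr3:7004210-7004229, exon 1 of 6, coding: gccaccggatcaaagcaatc
UBC19 reverse, across the junction of exons 2 and 3, chr3:7003617-7003719: ccggatcagctcccatcatc
EIF4A-III forward, across the junction of exons 6 and 7, chr3:6866017-6866134: gattcgggcgtaagggtgtt
EIF4A-III reverse, chr3:6866267-6866286, exon 7 of 7, non-coding: agacacttccccgctgaaag
The amplicons are 109 and 172 bases long in the spliced transcripts. UBC19 had normalized values of 2222, 2333, 2303 and 2245 in the control and 1943, 2031, 2048 and 2013 at 30 °C. It ranked 2321st with a CV of 7.0%, and its log2 fold change was -0.18 (95% confidence interval -0.26 to -0.10, adjusted p = 3.4e-04, limma). EIF4A-III had 7807, 8447, 8020 and 8218 in the control and 7002, 6943, 7107 and 7249 at 30 °C. It ranked 2744th with a CV of 7.82%, and its log2 fold change was -0.20 (95% confidence interval -0.27 to -0.13, adjusted p = 5.3e-05, limma). All 4 high temperature libraries lay below all 4 control libraries in both genes (exact two-sided permutation p = 0.029, the smallest that 70 arrangements allow), and neither reached a fold change of 0.58. On the deposited scale both genes thus stood lower at 30 °C by a similar amount. All genes with a mean of 2000 to 5000, the level of UBC19, had a median log2 fold change of -0.15. Those of 5000 to 10000, the level of EIF4A-III, had -0.29. The temperatures did not overlap in 79.0% of all genes of at least 500. The stable set was chosen to lie near 0 on the deposited scale, so it is no independent yardstick for UBC19 and EIF4A-III.

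**Figure D3:**
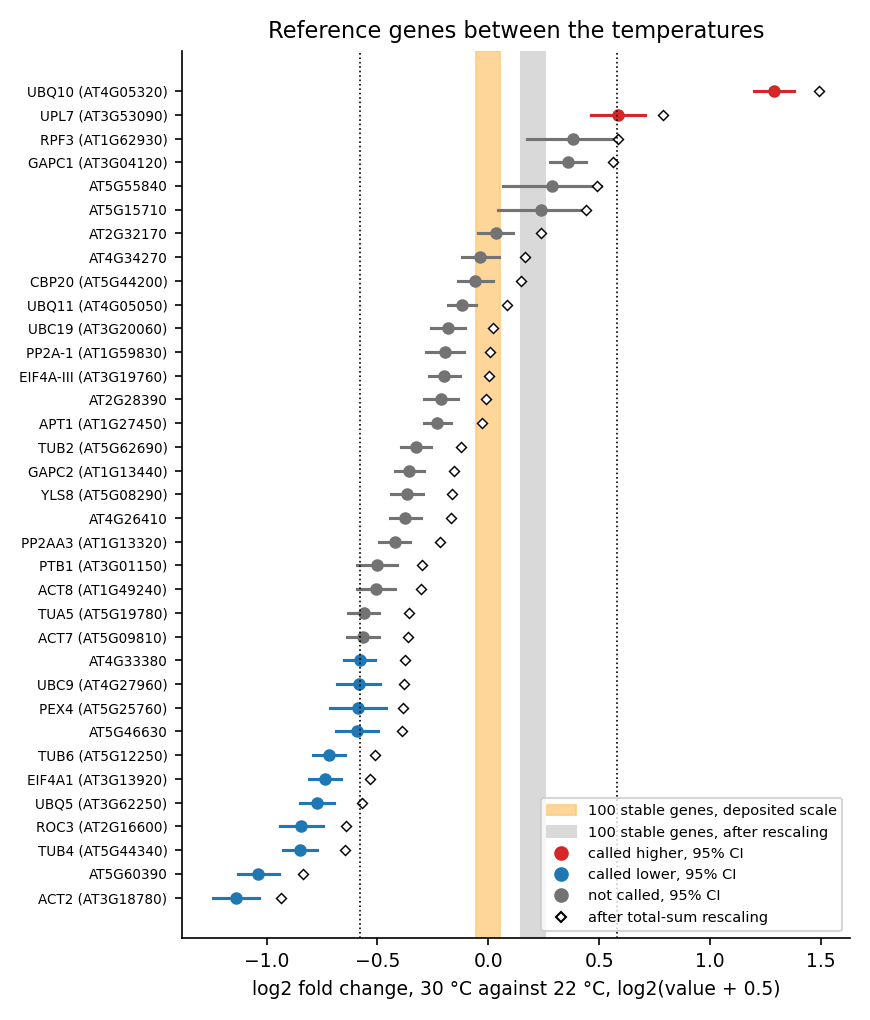
Log2 fold change between 30 °C and 22 °C of the 35 tested reference genes on the deposited scale (filled points with 95% confidence intervals, n = 4 per temperature) and after rescaling every library to the same total (open diamonds). The orange band is the range of the 100 stable genes on the deposited scale, -0.06 to 0.05, the grey band their range after rescaling, 0.15 to 0.26, and the dotted lines are at -0.58 and 0.58. The 11 genes called lower lie to the left and UBQ10 and UPL7 to the right. UBC19 and EIF4A-III lie below the band of each scale, since the rescaling moves every gene by about the same amount.

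Which genes were the most stable depended on how the libraries were made comparable. When each library was rescaled to the same total, which expresses each gene as a share of its library, the median log2 fold change of all tested genes moved from 0.01 to 0.22, a shift of 0.20. None of the 100 genes was then among the 100 of lowest CV. Relative to the total, their log2 fold changes became 0.15 to 0.26, which is about the same shift added to values that the choice had kept near 0. Their CVs rose to between 5.59 and 9.64%, and GLX1 went from 0.960 to 7.16%. The 100 genes held 1.25% of the total in the control and 1.44% at 30 °C, while their summed normalized value was 527294 ± 3345 and 527684 ± 3754 (SD, n = 4 each).

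After the rescaling the list opened with NTRA (AT2G17420), a thioredoxin reductase, ATP5 (AT5G13450), the delta subunit of the mitochondrial ATP synthase, and PUX5 (AT4G15410). These and the next genes were named after their values were seen. The adenine phosphoribosyltransferase gene APT1 (AT1G27450), one of the listed references, ranked 7th, with a CV of 1.34% in place of 8.58%. UBC19 ranked 62nd with a CV of 2.15% and EIF4A-III 70th with 2.21%, so that 3 of the 36 references were on that list. Their log2 fold changes were then 0.02 for UBC19 (adjusted p = 0.57, limma) and 0.0048 for EIF4A-III (adjusted p = 0.89, limma), with the sign turned. ACT2 and UBQ10 stayed past both thresholds, at -0.93 and 1.49. Of the genes called, 69.7% were higher on this scale against 53.4% on the deposited one.

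**Figure D4:**
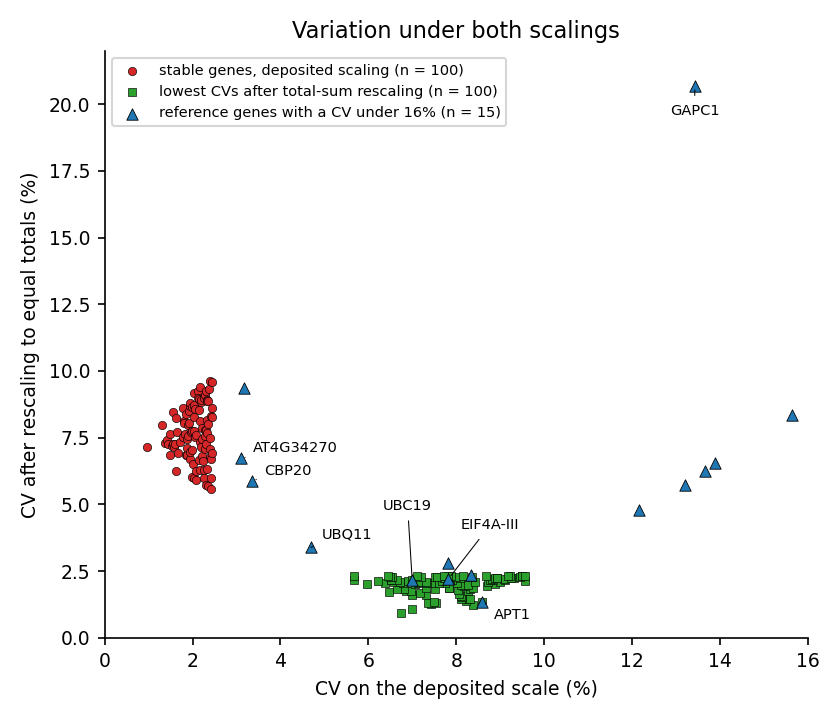
CV over the 8 libraries on the deposited scale (horizontal axis, percent) against the CV after rescaling to equal totals (vertical axis, percent). The 100 stable genes (red) have CVs of 0.960 to 2.44% on the first scale and 5.59 to 9.64% on the second, the 100 genes of lowest CV after rescaling (green) show the reverse, and UBC19, EIF4A-III and APT1 lie among the latter.

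The total on the deposited scale was smaller at 30 °C mainly through abundant genes. The 715 genes with a mean above 10000 held 42.5% of the control total, and their sum was 0.776 times as large at 30 °C. Of these 715 genes, 296 were called lower and 50 higher, beside 17.7% lower and 11.9% higher over all genes of at least 500. Among the 3241 genes between 500 and 1000 the sum was 1.05 times as large, and of these 3241 genes 402 were called lower and 544 higher. Whether the amount of RNA per root tip changed cannot be told from values of this kind.

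Close relatives of stable genes were called about as often as all genes of the level, whereas the choice itself kept the members near 0. For 39 members the nearest protein of another gene of that level, with at least 50% identity over at least 70% of the length, was encoded by a gene outside the set. Of these 39 genes, named after their values were seen, 4 rose and 7 fell past both thresholds (28.2%, against 29.6% of all genes of the level), and the other 28 were not called. CKA1 (AT5G67380) and the member CKA2 (AT3G50000) encode catalytic subunits of casein kinase II with 88.7% identity. CKA1 rose by 1.28 on the log2 scale, from 2778 ± 102 to 6743 ± 222 (SD, n = 4 each, adjusted p = 2.1e-13, limma), whereas CKA2 had 4501, 4253, 4391 and 4326 in the control and 4338, 4218, 4307 and 4358 at 30 °C. J2 (AT5G22060), 90.8% identical to J3, rose by 0.80, from 8493 ± 96.8 to 14829 ± 739. VDAC3 (AT5G15090), at 517 FPKM as abundant per length as VDAC1, rose by 0.68, from 25020 ± 417 to 40078 ± 984.

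Other relatives fell. AT2G31610, which encodes ribosomal protein S3 as the member AT5G35530 does, with 91.2% identity, fell by 0.95, from 28945 ± 770 to 15000 ± 909. Mitochondrial mMDH2 (AT3G15020), a malate dehydrogenase related to the peroxisomal member PMDH1, fell by 0.88, and AT2G34190, a permease related to AT5G62890, by 1.31. RPL10B (AT1G26910), 95.02% identical to SAG24, and PP2A-3 (AT2G42500), 98.1% identical to PP2A-4, had log2 fold changes of -0.57 and -0.54 and were not called. Polyubiquitin genes consist of repeats of one coding unit, so reads of UBQ4 and UBQ10 (100% identical in the aligned protein) may have been split between them by the authors' counting. Their transcripts did not match at 95% identity or more over 200 or more bases, and a split of reads over shorter stretches was not tested. Of the 11 genes called, GEM and AT3G19740 were no longer past the threshold after the total-sum rescaling, at -0.41 and -0.48, while ATAF2 (0.61), AT2G34750 (0.61) and AT4G35140 (0.59) came past it, for 12 in all.

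**Figure D5:**
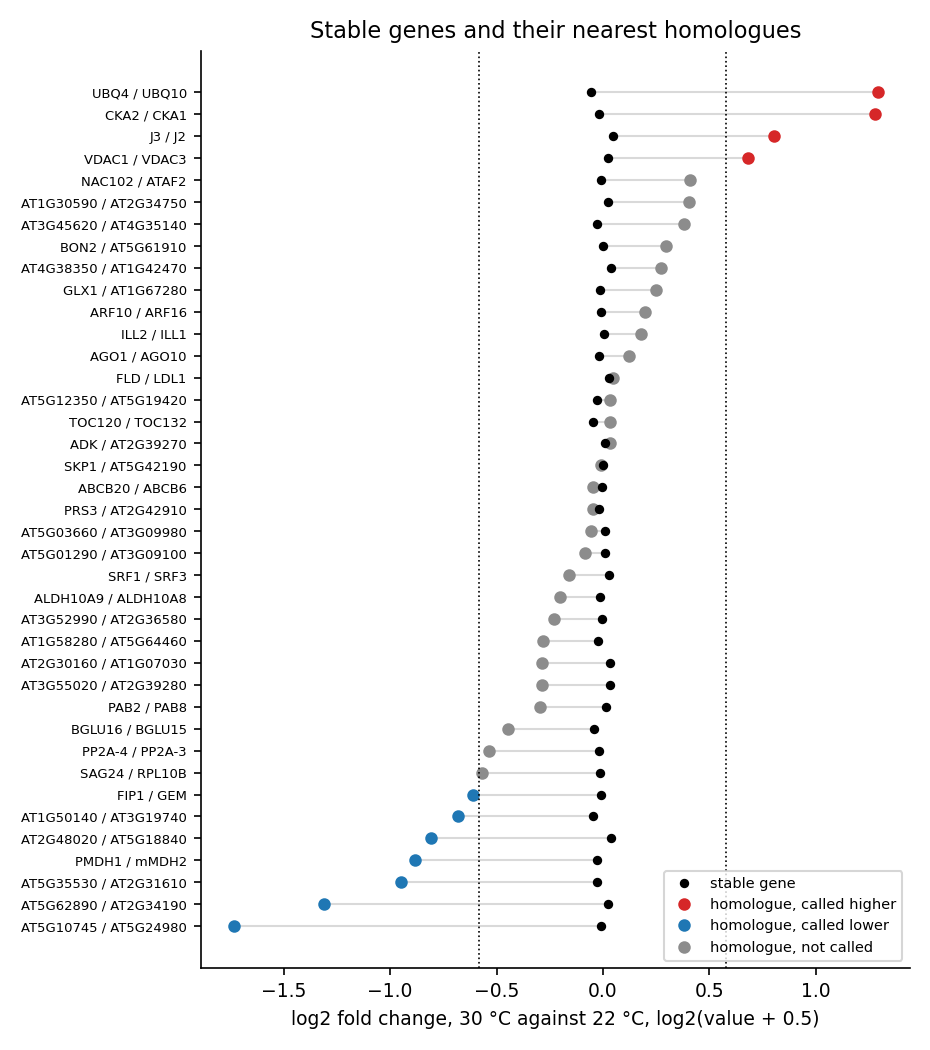
Log2 fold change between 30 °C and 22 °C of 39 stable genes (black) and of the nearest homologue of each (coloured where past both thresholds, grey where not), with the pair named on the vertical axis and dotted lines at -0.58 and 0.58. The homologues run from -1.74 for AT5G24980 to 1.29 for UBQ10, while the stable genes stay near 0 by choice.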

How the data were processed

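The authors aligned directional poly(A) libraries with HISAT2 to TAIR10 and deposited normalized signal values, which are read counts divided by DESeq2's size factors, and FPKM values. The submitters' processing notes name these tools and this build. In each of the 19518 genes above 0 in all libraries, normalized value and FPKM stood in the same ratio in every library. FPKM therefore carries the same size factors and was not scaled to each library's total. How reads were counted, and whether by strand, is not given in the sources used here. Genes that overlap on opposite strands may therefore share reads. Of the normalized values, 100% were whole reads within 0.01 once multiplied by the step of the library, and these recovered reads served the count tests. Between 38216649 and 41833843 reads per library set the counting error, which was computed for each gene as the CV that counting alone would give. No read filter beyond the authors' own was applied.

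CVs were computed on the normalized values of genes with a mean of at least 500. Temperatures were compared with limma 3.58.1 (intensity trend) on log2(value + 0.5) of genes with a mean of at least 1, adjusted by Benjamini-Hochberg over 21739 genes and called where the adjusted p was under 0.05 and the log2 fold change at least 0.58 in size. Fold changes on this scale understate those of low genes. P-values measure the difference against the spread among the seedling pools. edgeR, DESeq2, other scalings, filters, pseudocounts, measures of stability, a replicate block and the leaving out of each library were the alternatives. The members and the lists of reference genes, markers and keywords were chosen with earlier results of these data known. Named are the 10 members of lowest CV, the 3 highest in FPKM, the 3 lowest in mean, the 3 largest changes each way, the genes around the limit, up to 3 members of each keyword group, UBC19, EIF4A-III, the called reference genes of largest change, up to 4 each way (only 2 rose), and the 4 of lowest CV; any other gene was named after its values were seen. Names, coordinates, exons and upstream sequence came from RefSeq's TAIR10.1, which held 23479 of the 23632 identifiers. Nearest homologues were found with blastp on proteins translated from that annotation. Primer sequences came from the study's supplementary material.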

Additional observations from a re-analysis of the deposited data

Results flagged for a closer look

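In 114 groups of 4 libraries (57 named genes at each temperature), 5 had a library whose distance to the nearest other, as a share of the group's range, was above Dixon's 95% critical value, and chance gives about 1 in 20. Among the stable genes, AT1G27530 was 4604 in control replicate 1 against 4793 to 4802 in the other 3, and FLD was 1546 in control replicate 3 against 1618 to 1632. AGO1 was 12724 in control replicate 3 against 12963 to 13005, and AT5G03660 was 1800 in high temperature replicate 4 against 1882 to 1889. Each of these gaps was a few percent of the level. Among the reference genes, ROC3 was 19830 in high temperature replicate 1 against 22822 to 23362.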

How the results depend on the processing

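Counts over all genes stayed within 1.5 times under all 17 alternatives, from 3761 to 5967 higher and from 2595 to 3892 lower. The median of all genes moved by more than 0.1 only under total-sum rescaling (5967 higher, 2595 lower). Reference genes called numbered 7 under total-sum rescaling, 5 under quantile normalization, 9 under TMM scaling and 9 by edgeR, against 13. When 1 library was left out they numbered 8 to 15. Stable genes past the adjusted p numbered 100 under total-sum rescaling and 58 under quantile normalization, and 0 in the other 15. Of the 100 stable genes, 0 were still selected under total-sum rescaling, 14 under quantile normalization, 43 under upper quartile scaling, 69 under TMM scaling, 37 by median absolute deviation over the median, 12 by the CV within temperatures alone, 41 by the CV over counting noise, 66 with a mean of at least 2000, and 66 to 81 with 1 library left out. Their median CV was 7.61%, 4.55% and 2.52% and their median log2 fold change 0.20, 0.10 and 0.036 under total-sum, quantile and upper quartile scaling. Signs turned for UBC19 (0.023), EIF4A-III (0.0048), AT4G34270 (0.17), CBP20 (0.15) and UBQ11 (0.084) under total-sum rescaling, and for EIF4A-III (0.054), AT4G34270 (0.041), CBP20 (0.033) and UBQ11 (0.25) under quantile normalization. The homologues called numbered 10 to 12 in alternatives chosen after seeing the data. Beyond the change of scale itself, the cause was not tested.

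Replicate numbers were not treated as pairs. Deviations of same-numbered libraries correlated at 0.0031 to 0.077, against -0.086 to 0.046 for differently numbered ones. Such values cannot show whether same-numbered pools were grown or harvested together. With a replicate block, 4300 genes were higher and 3762 lower, and no call given here changed.

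The normalization sets the zero from which stability is measured, so these values show which genes kept their level relative to the authors' size factors and not in molecules per root tip. Counting alone gives a CV of 2.23% at a mean of 2000, close to the limit of 2.44%, so depth limits what an order among the lower members can show. With 4 libraries per temperature, the list was chosen and described on the same values.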

Other observations

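The 100 genes of lowest CV within the temperatures alone, with the difference between temperatures ignored, opened with AGB1, the beta subunit of the heterotrimeric G protein, and AT3G02360. That list shared 12 genes with the stable set. Of its 100 genes 1 was called higher and 8 lower at 30 °C, beside 11.9% higher and 17.7% lower over all genes of the level. Its log2 fold changes ran from -0.80 to 1.06.

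With the CV divided by its counting part, SFR2, SRF1, ILL2, GCN2 and OCP3 came first. Their ratios of 0.556 to 0.583 in SFR2, SRF1, GCN2 and OCP3 belong to genes with means between 571 and 1471.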
